A study of Homo sapiens with 8 samples.

Results

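The 10 genes described here are HIF1A and 9 genes known as hypoxia-responsive, several of which encode glycolytic enzymes: HK2, PFKP, PGK1, ENO1, PDK1, LDHA, VEGFA, BNIP3 and NDRG1. They were taken by name, as the brightest row annotated with exactly that symbol, and all 10 had 1 row among the 11822 genes of the array table. All 10 lay above the median brightness of those genes, so no filter on dim rows removed any of them.

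RNA came from U-87MG cells, a long-established line from a human glioblastoma, labelled with no genetic modification. Each array reads a whole culture, so fewer cells expressing a gene and less of its RNA per cell cannot be told apart. The cells were treated for 24 h with 50 µM indole-3-carboxaldehyde (I3CA), a tryptophan-derived indole aldehyde listed by the submitters among ligands, established or presumed, of the aryl hydrocarbon receptor (AHR). Controls received the solvent DMSO, which did not exceed 0.2% of the medium. Each group had 4 whole-transcript arrays, numbered 1 to 4 and called biological replicates; if these were not separate cultures, the p-values below measure only the spread between arrays. The culture medium had high glucose and pyruvate, and the labels give no oxygen level.

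Hypoxia-inducible factor (HIF) is a transcription factor made of an oxygen-regulated alpha subunit, such as the product of HIF1A, and the constant partner ARNT. When oxygen is plentiful, prolyl hydroxylases mark the alpha subunit for destruction, so that HIF1A activity is set mostly at the protein and not at the RNA, which is what the arrays measure. AHR uses the same partner ARNT, and glioblastoma is known for both hypoxic regions and high glycolysis. The genes below run from the regulator through glucose phosphorylation and lower glycolysis to the fate of pyruvate, and end with VEGFA, BNIP3 and NDRG1.

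HIF with ARNT binds the letters ACGTG or GCGTG, and AHR with ARNT binds sites around GCGTG, so the second motif belongs to both. RefSeq promoters (GRCh38.p14) were found for 8 of the 10 genes, at 15 start sites in all. The 3 genes with a single start there are printed as the 250 bases before the start, 5′ to 3′ on the gene's strand. Of the 10 genes, BNIP3 varied most between arrays, PGK1 was closest to it in profile, and ENO1 was the steadiest. A link between motif counts and spread was not tested. Capitals mark ACGTG and GCGTG on either strand; on the other strand they read CACGT and CACGC, and CACGTG is ACGTG on both strands at once.
BNIP3, chr10:131981924-131982173, minus strand: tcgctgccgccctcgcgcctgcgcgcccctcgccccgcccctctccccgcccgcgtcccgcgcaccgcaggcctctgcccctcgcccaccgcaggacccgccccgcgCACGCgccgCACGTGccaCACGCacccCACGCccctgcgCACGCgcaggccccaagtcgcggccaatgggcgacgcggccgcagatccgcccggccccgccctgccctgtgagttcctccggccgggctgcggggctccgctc
PGK1, chrX:78103998-78104247, plus strand: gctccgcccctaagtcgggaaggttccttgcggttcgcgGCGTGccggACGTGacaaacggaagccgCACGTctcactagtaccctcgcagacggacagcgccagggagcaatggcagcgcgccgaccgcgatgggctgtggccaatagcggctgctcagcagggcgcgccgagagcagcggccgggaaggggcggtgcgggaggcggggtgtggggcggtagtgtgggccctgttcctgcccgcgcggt
ENO1, chr1:8878687-8878936, minus strand: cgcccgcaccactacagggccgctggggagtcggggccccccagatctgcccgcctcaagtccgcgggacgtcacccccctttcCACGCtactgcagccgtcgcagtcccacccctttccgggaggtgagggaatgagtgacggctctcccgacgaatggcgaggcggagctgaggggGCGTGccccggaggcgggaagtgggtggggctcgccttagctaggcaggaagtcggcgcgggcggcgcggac

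The BNIP3 window held 2 matches of ACGTG, both in the 1 palindrome, and 4 of GCGTG. The PGK1 window held 2 of ACGTG and 1 of GCGTG, and the ENO1 window held 0 and 2. Over the 15 starts of the 8 genes, 7 windows (46.7%) held ACGTG and 8 (53.3%) held GCGTG. Among all 35116 starts in the table the shares were 18.5% and 32.2%. Apart from HIF1A, these genes were taken as known hypoxia-responsive genes, so a higher share of HIF motifs was likely before counting. The starts were not matched for base content. Starts of 1 gene are not independent of each other, and a match describes the letters only.

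No gene of the 10 passed in the comparison of I3CA with DMSO. In the limma fit over all 11822 genes, 0 of 10 passed the adjusted threshold of 0.05 (lowest adjusted p = 0.9999) and 0 of 10 had an unadjusted p under 0.05. Among all genes the shares were 0.00846% (1 gene, SLC16A6, a monocarboxylate transporter family gene) and 3.16%. The 10 differences, I3CA minus DMSO on the log2 scale, ran from -0.04 (PDK1) to 0.28 (VEGFA), with a median of 0.09 against -0.01 over all genes. For 9 of the 10 genes the mean was higher with I3CA, while 46.6% of all genes had a higher mean with I3CA. The 10 genes are read from the same arrays and are not separate observations. Their count ranged from 7 to 10 over the 21 alternatives below, with 7 when I3CA array 3 was left out. No gene of the 10 had groups that did not overlap, which 1.92% of all genes had.

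HIF1A (probe set 16785059) encodes the oxygen-regulated subunit itself. Its log2 expression in DMSO arrays 1 to 4 was 11.97, 11.93, 12.01 and 12.12, and in I3CA arrays 1 to 4 it was 11.96, 12.09, 12.10 and 12.23. The arrays numbered 4 were the highest of each group, and I3CA arrays 1 to 3 lay inside the DMSO range. The means were 12.01 ± 0.08 (SD, n = 4) with DMSO and 12.10 ± 0.11 (SD, n = 4) with I3CA. Their difference was 0.09 ± 0.08 (SE), with a 95% interval from -0.10 to 0.28 (0.935-fold to 1.21-fold). Without I3CA array 4 the difference was 0.04.

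HK2 (probe set 16881840) encodes the inducible hexokinase that traps glucose in the cell as glucose 6-phosphate. The DMSO arrays read 9.79, 10.02, 9.80 and 9.81, and the I3CA arrays 9.98, 10.05, 9.98 and 10.11. DMSO array 2 stood above the other DMSO arrays and was the 1 control value inside the I3CA range. HK2 differed by 0.17 ± 0.08 (SE; 95% interval -0.01 to 0.36), or 1.13-fold. It ranked 461 of 11822 genes by limma p, first among the 10 genes, and did not pass (adjusted p = 1). With DMSO array 2 left out the difference was 0.23, and it did not pass there either (limma adjusted p = 1).

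PFKP (probe set 16701857), the platelet-type phosphofructokinase at the committed step of glycolysis, read 10.86, 11.01, 10.75 and 10.61 in the DMSO arrays. With I3CA it read 11.09, 10.99, 11.05 and 10.70. The arrays numbered 4 were the lowest of both groups, and the groups overlapped. The difference was 0.15 ± 0.12 (SE; 95% interval -0.11 to 0.40). It was 0.08 without DMSO array 4 and 0.24 without I3CA array 4.

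PGK1 (probe set 17105050), the phosphoglycerate kinase that makes ATP in lower glycolysis, read 12.17, 12.04, 12.18 and 11.78 with DMSO and 12.12, 11.96, 12.27 and 11.96 with I3CA. The array numbered 4 was the lowest with DMSO, and arrays 2 and 4 were the lowest with I3CA. The group means, 12.04 ± 0.19 and 12.08 ± 0.15 (SD, n = 4 each), lay closer together than the arrays of either group (difference 0.03 ± 0.11 SE, 95% interval -0.21 to 0.28). Leaving out both arrays numbered 4 turned its sign (-0.01).

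ENO1 (probe set 16681375) encodes the enolase that forms phosphoenolpyruvate. It read 13.27, 13.22, 13.02 and 13.17 with DMSO, and 13.21, 13.24, 13.27 and 13.19 with I3CA. It had the smallest spread of the 10 genes, a within-group SD of 0.08, and DMSO array 3 was the low one. Its difference was 0.06 ± 0.08 (SE; 95% interval -0.12 to 0.24), and 0.01 without DMSO array 3. LDHA, PGK1 and ENO1 have processed pseudogene copies, and whether their probes also read those was not analysed here.

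PDK1 (probe set 16887738) encodes a pyruvate dehydrogenase kinase, which keeps pyruvate out of the mitochondrial citrate cycle. It read 9.91, 9.87, 10.39 and 9.95 with DMSO and 9.89, 9.74, 10.26 and 10.09 with I3CA. Arrays numbered 3 were the highest of both groups, and DMSO array 3 stood apart from its group. PDK1 was the 1 gene of the 10 with a lower mean with I3CA, at -0.04 ± 0.14 (SE; 95% interval -0.35 to 0.28), and without DMSO array 3 its difference was 0.08.

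LDHA (probe set 16722604), the lactate dehydrogenase subunit that turns pyruvate into lactate, read 12.99, 12.71, 12.98 and 12.84 with DMSO and 12.89, 12.87, 12.99 and 12.86 with I3CA. The I3CA arrays lay almost wholly within the DMSO range. The difference of 0.02 ± 0.09 (SE) had a 95% interval from -0.17 to 0.21, or 0.889-fold to 1.16-fold. The 95% intervals of all 6 enzymes, from HK2 to LDHA, included 0.

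**Figure D1:**
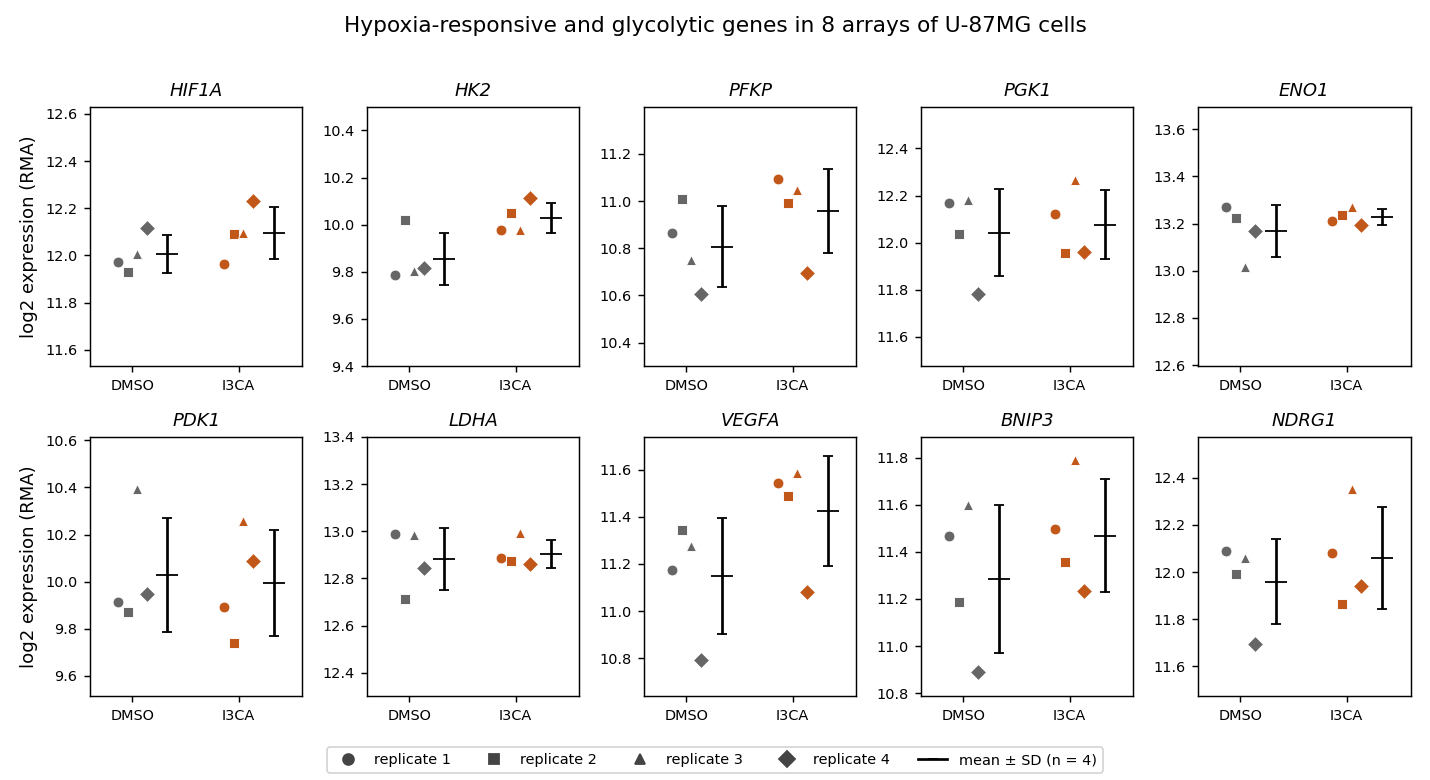
Log2 expression (RMA) of each of the 10 genes in the 4 DMSO arrays (grey) and the 4 I3CA arrays (orange), 1 panel a gene with equal axis length, symbols for the replicate number and black marks for mean ± SD (n = 4). The groups overlap in all 10 panels; HK2 has 1 DMSO array (10.02) inside the I3CA range, and the arrays numbered 4 are the lowest of both groups for VEGFA, BNIP3 and PFKP.

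VEGFA (probe set 17009094) encodes the secreted growth factor that draws new blood vessels, and had the largest difference of the 10 genes. Its log2 expression was 11.18, 11.35, 11.28 and 10.79 in DMSO arrays 1 to 4 and 11.54, 11.49, 11.59 and 11.08 in I3CA arrays 1 to 4. I3CA arrays 1 to 3 lay above every DMSO array, while I3CA array 4 lay below 3 of the 4 DMSO arrays. The means were 11.15 ± 0.25 with DMSO and 11.43 ± 0.23 with I3CA (SD, n = 4 each), a difference of 0.28 ± 0.15 (SE) with a 95% interval from -0.04 to 0.60, or 1.21-fold (0.97-fold to 1.51-fold). It ranked 681 of 11822 genes by limma p and did not pass (adjusted p = 1). Left-out arrays moved its difference between 0.16 (without DMSO array 4) and 0.39 (without I3CA array 4).

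BNIP3 (probe set 16719645) encodes an outer mitochondrial membrane protein that promotes mitophagy. The DMSO arrays read 11.47, 11.19, 11.60 and 10.89, and the I3CA arrays 11.50, 11.36, 11.79 and 11.23. Both groups had array 3 highest and array 4 lowest. The SD of BNIP3 within groups, 0.28, was the widest of the 10 genes, and its difference was 0.18 ± 0.16 (SE; 95% interval -0.18 to 0.55). It was 0.05 without DMSO array 4, 0.08 without I3CA array 3 and 0.29 without DMSO array 3.

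NDRG1 (probe set 17081402), a stress-responsive gene induced by hypoxia, read 12.09, 11.99, 12.06 and 11.70 with DMSO. With I3CA it read 12.08, 11.87, 12.35 and 11.94. I3CA array 3 was the highest of all 8 arrays and DMSO array 4 the lowest. The difference was 0.10 ± 0.13 (SE; 95% interval -0.18 to 0.38). It was 0.0016 without I3CA array 3, 0.01 without DMSO array 4 and 0.17 without I3CA array 2.

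Setting each I3CA array against the DMSO array of its number gave a same-signed difference in all 4 pairs for 3 of the 10 genes. These were VEGFA (0.37, 0.14, 0.31 and 0.29 for numbers 1 to 4), HK2 (0.19, 0.03, 0.17 and 0.30) and BNIP3 (0.03, 0.17, 0.19 and 0.34), all higher with I3CA. Among all genes 12.7% had the same sign in all 4 pairs, 6.06% higher and 6.68% lower. The other 7 genes had pairs on both sides of 0, and PDK1 was lower in 3 of 4. Nothing in the labels says that a number marks a shared culture or day.

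**Figure D2:**
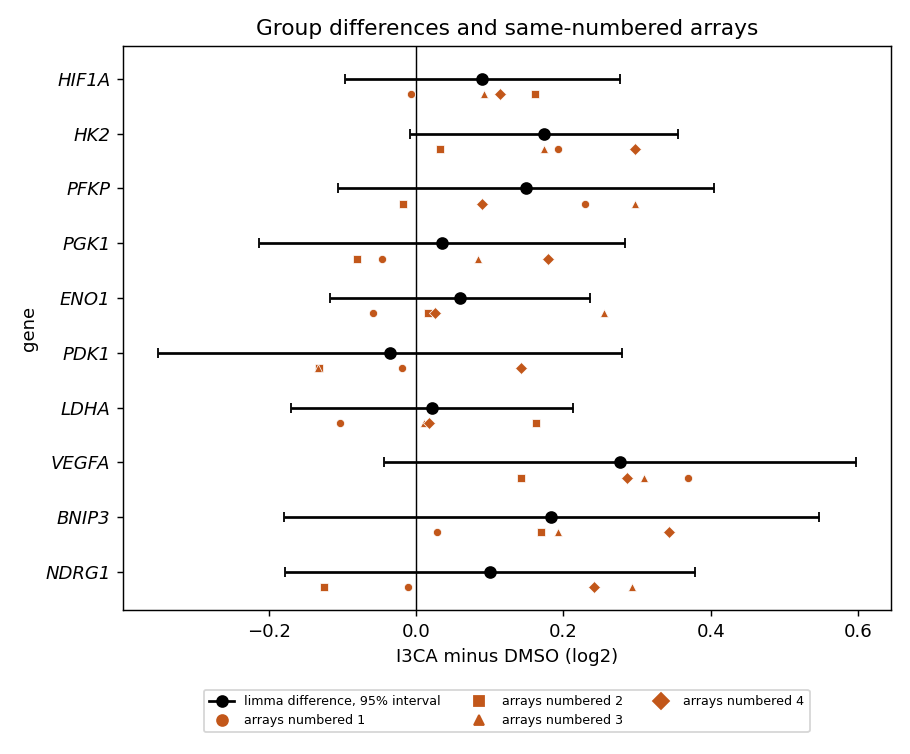
Difference I3CA minus DMSO on the log2 scale for each of the 10 genes (black, limma estimate with its 95% interval, n = 4 arrays a group), and beneath it the differences between same-numbered arrays (orange symbols). All 10 intervals, from the fit without a replicate block, include 0. The 4 same-numbered differences are all above 0 for VEGFA, HK2 and BNIP3.

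The arrays numbered 4 were the lowest of both groups for VEGFA, BNIP3 and PFKP, and the arrays numbered 3 were the highest of both for BNIP3, PGK1 and PDK1. The first principal component of all genes, 24.8% of the variance, set both arrays numbered 4 apart (scores of 15.3 and 16.4 against -11.2 to 0.39 for the other 6, with arbitrary sign). In the arrays numbered 4, VEGFA averaged 10.94 against 11.40 in the other 6 arrays, BNIP3 11.06 against 11.48, PFKP 10.65 against 10.96, NDRG1 11.82 against 12.07 and PGK1 11.87 against 12.12. HIF1A went the other way, at 12.17 against 12.01. HK2, PDK1, ENO1 and LDHA differed by between -0.05 and 0.03. In the arrays numbered 3, PDK1 averaged 10.32, BNIP3 11.69 and PGK1 12.23.

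A moderated F test over the 4 numbers, with treatment in the limma model, called 0 of 10 genes at the adjusted threshold, against 3 of all genes (0.0254%). At an unadjusted p under 0.05 it counted 3 of the 10, against 9.59% of all genes. These were BNIP3 (adjusted p = 0.36), VEGFA (adjusted p = 0.39) and PDK1 (adjusted p = 0.41). The range between the highest and lowest number's mean was 0.63 for BNIP3, 0.52 for PDK1 and 0.49 for VEGFA, with a median of 0.35 over the 10 genes and 0.24 over all genes. The 3 genes called over the whole table, named after their values were seen, were IL8 and IL1B, which encode inflammatory cytokines, and SLC7A11, the cystine transporter (adjusted p = 0.036 each), all lowest in number 4.

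**Figure D3:**
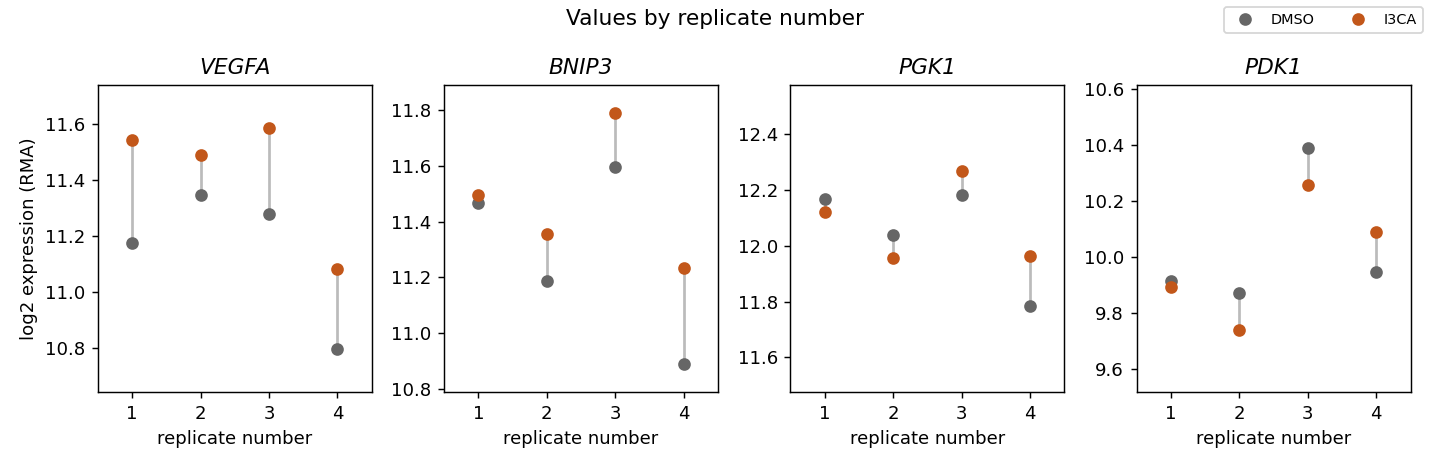
Log2 expression (RMA) of VEGFA, BNIP3, PGK1 and PDK1 against replicate number, with DMSO in grey, I3CA in orange and a line joining same-numbered arrays; each point is 1 array and the axes have equal length. VEGFA and BNIP3 are lowest in number 4 in both groups, and PDK1 is highest in number 3.

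Looked at by array, the 10 genes together were lowest in DMSO array 4 and highest in I3CA array 3. In DMSO array 4 the mean deviation from each gene's own mean over the 8 arrays was -0.21, HIF1A was the 1 gene above its mean, and 5 genes had their lowest value. In I3CA array 3 the mean deviation was 0.19, all 10 genes were above their own mean and 6 had their highest value. The other 6 arrays lay between -0.04 and 0.06. Over the same arrays the median of all genes ran from 8.82 to 8.86, with I3CA array 3 highest.

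**Figure D4:**
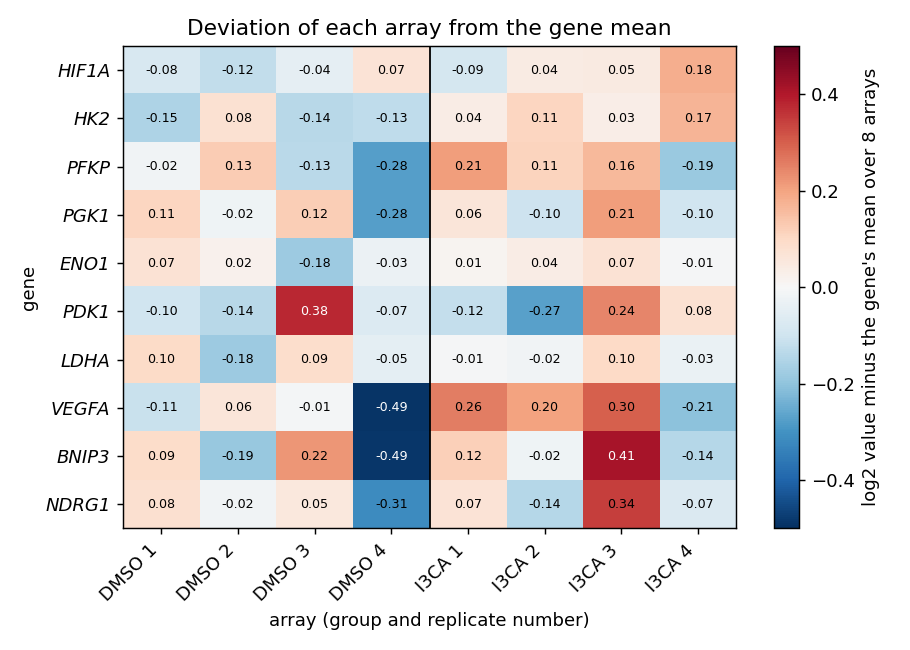
Log2 value minus the gene's mean over the 8 arrays, with genes in rows and arrays in columns (red above, blue below the gene's mean). DMSO 4 has the deepest blue, for VEGFA and BNIP3, and I3CA 3 is red in all 10 rows.

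The genes with profiles most like the 3 most variable members over the 8 arrays are given as a description. Likeness is the root mean square distance between values scaled to mean 0 and SD 1 over the 8 arrays, where 0 is the same profile. For VEGFA the closest of all other genes were TRPM7, an ion channel with a kinase domain (0.158), G0S2, an inhibitor of lipolysis (0.234), and STC1, a secreted glycoprotein (0.255). The median distance from VEGFA of the genes outside the 10 was 1.34. The closest genes were picked as the smallest of these distances, so lying below that median followed from the choice. Among the 10 genes themselves PFKP was closest to VEGFA (0.374). BNIP3 was closest to SAMD4B (0.278), HBS1L (0.295) and ITFG1 (0.298), and among the 10 genes to PGK1 (0.316). PDK1 was closest to FOPNL (0.262), THAP9-AS1 (0.264) and SQLE, the squalene epoxidase of sterol synthesis (0.286), and among the 10 genes LDHA was closest at 0.883. STC1 lay at 12.42 in DMSO array 4 and between 12.88 and 13.07 in the other DMSO arrays, and at 12.77 in I3CA array 4 and between 13.11 and 13.18 in the other I3CA arrays.

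The rest of the pathway was read from 4 further lists with 74 genes, of which 66 were measured. In the limma fit 0 of the 66 passed the adjusted threshold and 3 (FLT1, CXCR4 and PDK3) had an unadjusted p under 0.05, which is 4.55% against 3.16% of all genes. Of the 66, 38 had a higher and 28 a lower mean with I3CA, with a median difference of 0.01. None had groups that did not overlap, against 1.92% of all genes.

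Among 8 measured HIF subunits and regulators, 6 had a higher mean with I3CA and the median was 0.06. VHL, which targets the hydroxylated alpha subunit for destruction, read 8.60, 8.84, 8.81 and 8.89 with DMSO and 8.85, 9.0, 8.99 and 8.99 with I3CA, a difference of 0.17 ± 0.09 (SE; 95% interval -0.02 to 0.37). HIF3A, another alpha subunit, differed by -0.24 ± 0.17 (SE), and CITED2, which competes with HIF for the coactivator p300, by 0.09 ± 0.08 (SE). The groups overlapped for these 3 genes. VHL was higher with I3CA in all 4 same-numbered pairs, as for 6.06% of all genes.

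Among 14 measured genes of glucose uptake and other glycolytic steps, 6 had a higher and 8 a lower mean with I3CA, and the median was -0.02. PFKFB3, which makes the fructose 2,6-bisphosphate that drives phosphofructokinase, had the smallest p of this list and did not pass (limma adjusted p = 1). Its DMSO arrays read 9.49, 9.34, 9.68 and 9.61 and its I3CA arrays 9.20, 9.31, 9.45 and 9.33 (difference -0.21 ± 0.10 SE). Each I3CA array was below the DMSO array of its number, as for 6.68% of all genes. PFKM, the muscle-type phosphofructokinase, differed by 0.08 ± 0.08 (SE) and GPI, glucose 6-phosphate isomerase, by -0.09 ± 0.09 (SE).

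For pyruvate and lactate handling, 8 of 11 measured genes had a higher mean with I3CA, with a median of 0.02. PDK3, another pyruvate dehydrogenase kinase, read 8.13, 7.95, 8.14 and 8.05 with DMSO and 8.03, 8.45, 8.53 and 8.33 with I3CA. I3CA array 1 lay within the DMSO range and the other 3 above it. Its difference was 0.27 ± 0.11 (SE; limma adjusted p = 1). MPC2, a subunit of the mitochondrial pyruvate carrier, differed by 0.21 ± 0.12 (SE), with I3CA array 4 at 9.60 above the rest, and PDK2 by 0.09 ± 0.11 (SE).

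Of 33 other HIF target genes, 18 had a higher mean with I3CA and the median was 0.03. FLT1, a receptor for VEGFA, read 9.34, 9.74, 8.99 and 9.32 with DMSO and 9.55, 10.26, 10.14 and 9.89 with I3CA. Each I3CA array was above the DMSO array of its number, as for 6.06% of all genes, but DMSO array 2 lay within the I3CA range. The difference was 0.61 ± 0.18 (SE; limma adjusted p = 1). FLT1 is also an endothelial gene; of 4 endothelial markers 2 were measured, VWF at 0.21 ± 0.11 (SE) and KDR, another receptor for VEGFA, at 0.09 ± 0.11 (SE), and their average lay between 8.20 and 8.38 in DMSO arrays and between 8.27 and 8.56 in I3CA arrays. All arrays were made from cultures of the U-87MG line, and the cause of the FLT1 value was not tested.

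CXCR4, a chemokine receptor, read 8.17, 8.04, 8.68 and 8.49 with DMSO and 9.03, 8.54, 8.55 and 9.10 with I3CA. DMSO array 3 lay above I3CA arrays 2 and 3. The difference was 0.47 ± 0.17 (SE; limma adjusted p = 1). ADM, the vasodilator peptide adrenomedullin, differed by 0.23 ± 0.14 (SE). Its value was higher with I3CA in all 4 same-numbered pairs, as for 6.06% of all genes.

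**Figure D5:**
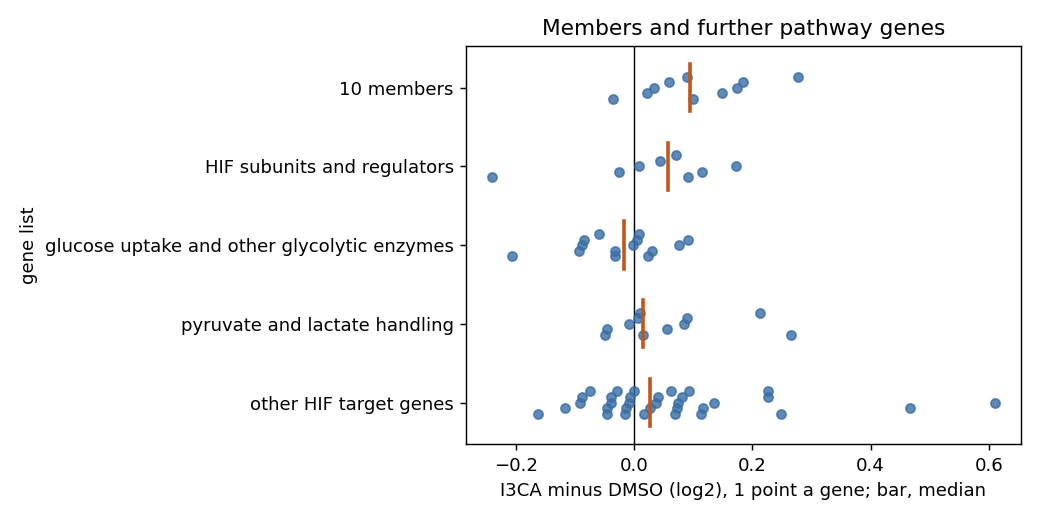
Difference I3CA minus DMSO on the log2 scale, 1 point a gene, for the 10 genes and the 4 further lists, with an orange bar at each list's median. The medians lie between -0.02 and 0.09, and the 2 points farthest right are FLT1 (0.61) and CXCR4 (0.47).

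Of 8 glial and glioma markers, 4 were measured, while S100B, SOX2, OLIG2 and FABP7 were not. In the DMSO arrays VIM, an intermediate filament gene of mesenchymal cells, averaged 13.08 ± 0.05 (SD, n = 4) and CD44, a surface receptor of mesenchymal glioma cells, 11.15 ± 0.10. The glial filament gene GFAP averaged 8.28 ± 0.39 and NES, encoding the progenitor filament nestin, 8.08 ± 0.15. Values of different probe sets are not comparable as levels. On average these 4 lay between 10.0 and 10.26 in DMSO arrays and between 10.11 and 10.25 in I3CA arrays. The table holds no measure of signal over background, so presence of a marker is not shown by its value alone.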

How the data were processed

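The authors deposited 1 table of log2 values, 1 row per probe set and 1 column per array; per the submitters' processing notes it was made with oligo and RMA, without versions. RMA subtracts background, quantile-normalizes arrays and summarises probes, which compresses fold changes. The genome build, any row filter and array batches are not given in the sources used here. Depth does not apply; the 4 arrays per group limit the precision. Of 13486 rows, 11850 had 1 gene symbol in GEO's platform annotation, an older release, 657 had several and 979 were not listed there. The brightest row stood for a gene, leaving 11822.

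I3CA and DMSO were compared with limma 3.58.1 in R 4.3.3 (lmFit, eBayes, two-sided, no covariate; Benjamini-Hochberg over all 11822 genes, threshold 0.05). A second limma model held treatment and replicate number, with an F test over the numbers. Both were tested on simulated data. The members and lists were chosen with earlier results of these data known. Named genes were all 10 members, the 3 smallest unadjusted p-values of each further list, and the 3 closest profiles of the 3 most variable members. Alternatives were other row rules, filters, scalings and priors, the replicate block and left-out arrays.

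Same-numbered arrays deviated from their group means with correlations of 0.04, 0.07, 0.05 and 0.32 across genes (numbers 1 to 4). Not every correlation exceeded 0.1, and the main fit has no block.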

Additional observations from a re-analysis of the deposited data

Results flagged for a closer look

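In 3 of 44 groups of 4 arrays, over the 10 genes and the 12 further genes named from the lists, 1 array lay far from the other 3 by Dixon's gap test, where about 2.2 are expected by chance (1 in 20). HK2 was at 10.02 in DMSO array 2, with the other DMSO arrays at 9.79 to 9.81. PDK1 was at 10.39 in DMSO array 3, with the others at 9.87 to 9.95. VHL was at 8.85 in I3CA array 1, with the others at 8.99 to 9.0.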

How the results depend on the processing

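Under all 21 alternatives 0 of the 10 genes passed in I3CA against DMSO, and 7 to 10 of them had a higher mean with I3CA (9 in the fit reported, 8 without both arrays numbered 4). HIF1A, HK2, PFKP, VEGFA, BNIP3 and NDRG1 kept their sign in all 21, though single arrays moved the sizes: NDRG1 came to 0.00158 without I3CA replicate 3, HIF1A ranged from 0.0446 to 0.134, PFKP from 0.0822 to 0.236 and BNIP3 from 0.0514 to 0.287. Leaving out 1 array at a time, the difference of LDHA ran from -0.0349 (without DMSO replicate 2) to 0.0577, that of PGK1 from -0.0523 (without DMSO replicate 4) to 0.0812, and that of PDK1 from -0.123 to 0.0844 (without DMSO replicate 3). LDHA and PGK1 also turned without I3CA replicate 3 and PDK1 without I3CA replicate 2. PGK1 turned to -0.0138 without both arrays numbered 4.

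Replicate numbers were shared by the groups but were not treated as pairs. With the replicate block 1 gene of all and 0 of the 10 passed, as without it. The SE of VEGFA became 0.07 (difference 0.28, limma adjusted p = 0.99) and that of BNIP3 0.08 (difference 0.18, limma adjusted p = 0.99). VEGFA alone of the 10 then had an unadjusted p under 0.05, as did 4.71% of all genes. At that unadjusted threshold, limma also counted VEGFA without I3CA replicate 4 (3.39% of all genes) and without both arrays numbered 4 (3.17%). It counted HK2 among genes above the median brightness (2.91%), with a brightness trend (3.09%) and without DMSO replicate 2 (3.4%). Alternatives added after seeing the data kept the block and left out both arrays of 1 number at a time: 0 genes passed in each, VEGFA differed by 0.25 to 0.32 (unadjusted p under 0.05 in each, with BNIP3 without number 1 and HK2 without number 2, against 3.78% to 5.53% of all genes), and signs turned for LDHA without number 2 (-0.0253), ENO1 without number 3 (-0.00596) and PGK1 without number 4 (-0.0138). These fits have fewer arrays.

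The genes called by replicate number went from 3 to 12 among genes above the median brightness, to 22 with a brightness trend in eBayes and to 0 without both arrays numbered 4, where fewer arrays enter; the cause of the other changes was not tested. None of the 10 genes was called in any of these. With 4 arrays a group, the intervals allowed differences of up to 0.60 (VEGFA).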
